A study of Oryctolagus cuniculus with 20 samples.

Results

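The ADAM and ADAMTS metalloproteases, the ADAMTS-like proteins and the TIMP inhibitors were followed in rabbit (Oryctolagus cuniculus) blood vessels. They were found by gene symbol in the deposited table, as ADAM, ADAMTS or TIMP followed by a number and as ADAMTSL genes. This gave 42 of 23669 genes: 17 ADAM, 19 ADAMTS, 3 ADAMTSL and 3 TIMP genes. Of these, 18 reached 1 FPKM in at least 4 libraries and were tested, namely 4 ADAM, 10 ADAMTS, 2 ADAMTSL and 2 TIMP genes. The unit, FPKM, counts sequenced fragments relative to transcript length and library depth. A listed level can miss part or all of a gene's transcripts. Rankings, shares and ratios between different genes therefore refer to listed values only.

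The vessels formed 5 groups of 4 libraries of total RNA. The graft groups held common carotid artery placed into a vein and taken out 14 or 30 days after surgery. The control group of each day was the common carotid artery of the opposite side, left without an operation. The last group was external jugular vein without an operation. The labels attach the treatment word for transplantation and the human cell line name HASMC to every library, unoperated vessels included. Strain, sex and age of the animals are not given in the sources used here. Libraries of a group are described as biological replicates, and nothing states that each came from its own animal. The p-values therefore refer to the spread among these libraries, which may be technical.

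ADAMs are membrane-bound proteases that cut the outer parts off other membrane proteins, such as growth factor precursors, cytokines and adhesion receptors. ADAMTS enzymes are secreted. Some cleave large proteoglycans such as versican and aggrecan, others trim procollagens, and others act on fibrillin microfibrils or cartilage oligomeric matrix protein. ADAMTS-like proteins share the accessory domains of the ADAMTS enzymes but lack the protease domain. TIMPs block metalloproteases, and TIMP3, which stays bound to the matrix, is the member known for inhibiting ADAMs and ADAMTS enzymes as well as matrix metalloproteinases.

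All 8657 genes that passed the filter entered 1 fit, with limma on log2(FPKM + 1) and Benjamini-Hochberg adjusted p-values with a threshold of 0.05, and log2 changes are on that scale. The added 1 FPKM makes the change of a gene listed near or below 1 FPKM smaller than its ratio of FPKM. Over all genes a library summed to between 327806 and 671582 FPKM, and no read numbers are in the table. The 4 control libraries of day 14 were nearly alike. In each of the other groups the library nearest to a weighted mean of the other 3 is called mixture-like, so the rule picks 1 in every group. These were replicate 3 of the day 14 grafts (median absolute log2 difference 0.077, next nearest library 0.120) and replicate 2 of the day 30 controls (0.088, next 0.156). The others were replicate 4 of the day 30 grafts (0.082, next 0.172) and replicate 4 of the veins (0.080, next 0.103). Day 14 controls lay between 0.079 and 0.082. How such libraries arose was not tested. Of the tested genes 1981 had a listed 0 somewhere, and 282 of these reached 20 FPKM elsewhere, within or between groups. A listed 0 can be a failed estimate or a truly low level, and these cannot be told apart here. Median-of-ratios scaling took the median log2 change over all genes at day 14 from 0.26 to 0.04 and turned 3161 higher and 1473 lower genes into 2367 and 2138. At day 30 the median went from 0.18 to 0.03, and 2253 higher and 1000 lower genes became 1693 and 1474.

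By day 14 the transplanted artery held much more ADAM12 and more ADAM9, ADAM15, ADAMTS2, ADAMTS5, ADAMTS7 and ADAMTS12 than the opposite artery. It held less TIMP3, ADAMTSL3, ADAMTSL4, ADAMTS15 and ADAMTS10. Of 18 tested members 12 passed the test, 7 higher and 5 lower, against 53.5% of all genes tested, 36.5% higher and 17.0% lower. The members' median log2 change was 0.30, beside 0.26 over all genes. Grafts and controls did not overlap in 13 members, 7 higher and 6 lower, against 33.9% and 16.1% of all genes. By day 30, 9 members passed, 5 higher and 4 lower, against 37.6% of all genes, 26.0% higher and 11.6% lower, and the medians were 0.67 for members and 0.18 for all genes. Groups did not overlap in 9 members at day 30, 5 higher and 4 lower, against 23.3% and 11.2% of all genes. After rescaling to TPM, where every library has the same sum, 3 members were higher and 4 lower at day 30, beside 29.5% of all genes called, 1274 higher and 1283 lower. These counts are near or modestly above the background on both days. All 5 members higher at day 30, ADAM12, ADAM15, ADAMTS2, ADAMTS5 and ADAMTS12, had also been higher at day 14. The 4 lower ones, TIMP3, ADAMTSL3, ADAMTSL4 and ADAMTS10, had also been lower.

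**Figure D1:**
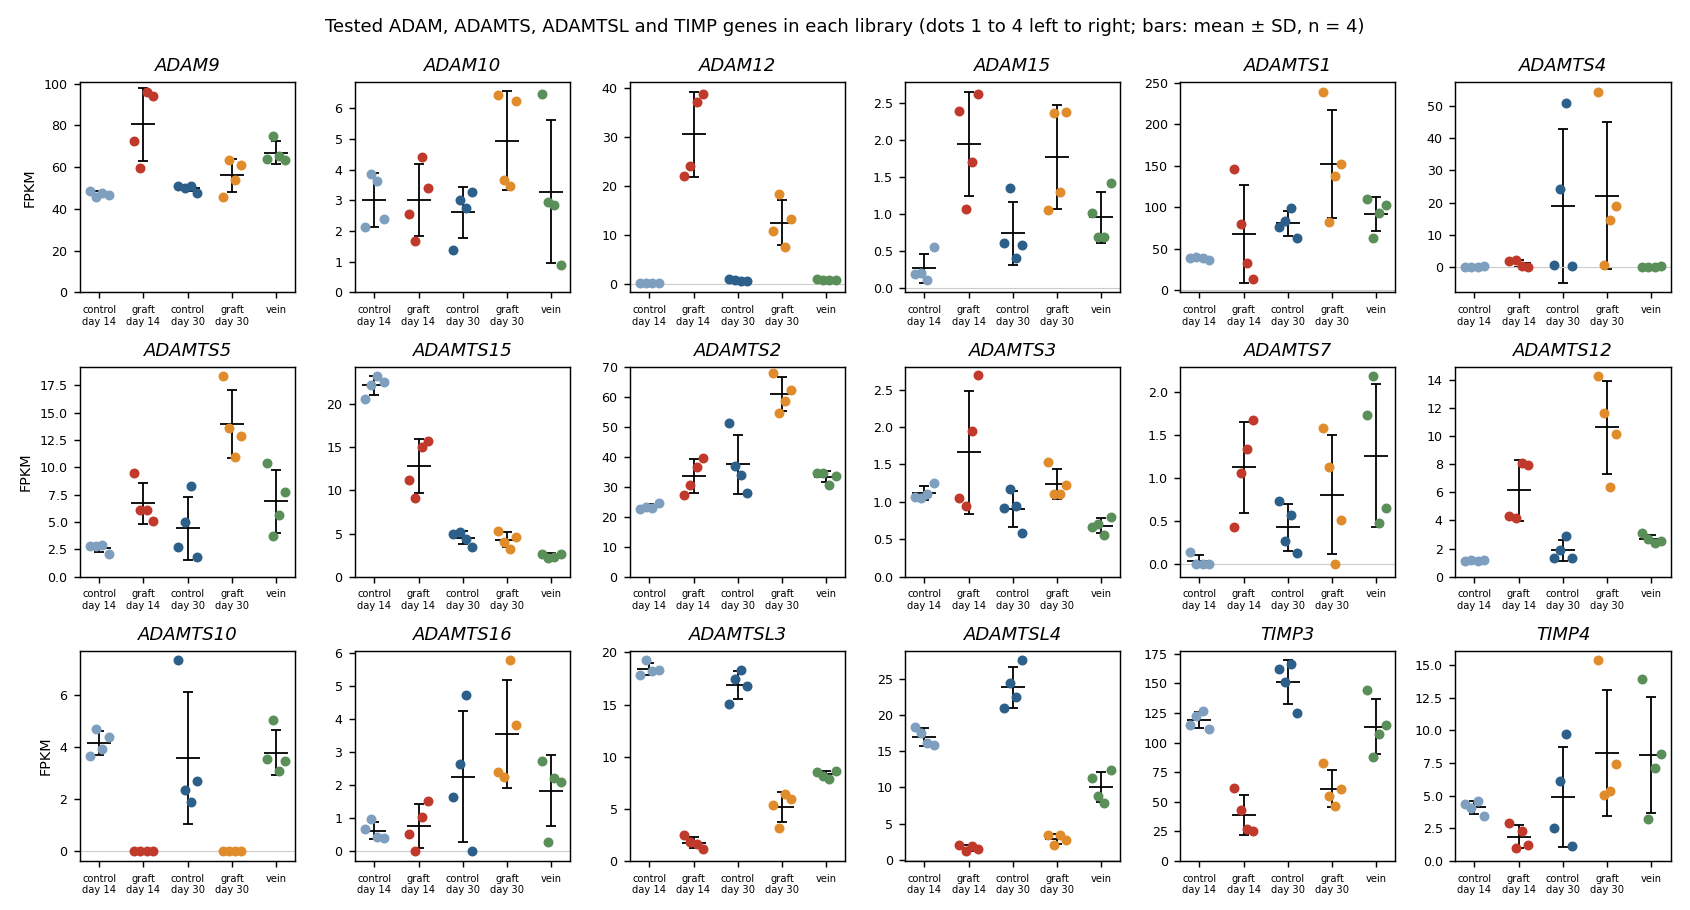
FPKM of the 18 tested members in each of the 20 libraries, 1 panel a gene with its own linear axis from 0, replicates 1 to 4 from left to right, with bars for the mean ± SD of the 4 libraries. ADAM12 stands between 7.64 and 38.7 FPKM in all 8 grafts and at or below 1.08 FPKM in the 12 unoperated vessels, and ADAMTS10 is listed at 0 in all 8 grafts.

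ADAM12 is a membrane-anchored ADAM known from growing muscle, fibrosis and remodelling tissue. It was listed at 0.29, 0.26, 0.27 and 0.31 FPKM in replicates 1 to 4 of the day 14 controls. The 4 day 14 grafts held 22.1, 24.1, 37.2 and 38.7 FPKM. The groups were far apart, with means of 0.282 ± 0.0222 and 30.5 ± 8.66 FPKM (SD, n = 4 libraries each). The log2 change was 4.58 (SE 0.21, limma adjusted p = 1.32e-11). At day 30 the controls held 0.960, 0.870, 0.680 and 0.610 FPKM and the grafts 10.9, 18.4, 7.64 and 13.3 FPKM. Grafts were again higher without overlap, by 2.87 on the log2 scale (SE 0.21, adjusted p = 1.08e-08). Veins lay between 0.820 and 1.08 FPKM, below every graft.

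ADAM9, a broadly expressed sheddase, was the most abundant ADAM in every group. Day 14 controls held 48.6, 45.9, 47.8 and 46.5 FPKM and grafts 72.7, 59.7, 95.9 and 94.0 FPKM. Every graft exceeded every control, with a log2 change of 0.73 (SE 0.13, adjusted p = 0.000108), a call lost after rescaling to TPM (adjusted p = 0.098, range 4.94e-06 to 0.098 over its alternatives). Day 30 controls had 51.2, 49.9, 50.8 and 47.9 FPKM and grafts 45.8, 63.5, 54.0 and 60.8 FPKM. The groups overlapped there and the change of 0.15 (SE 0.13) did not pass (adjusted p = 0.385).

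ADAM15, which carries an integrin-binding motif and is known from endothelium and smooth muscle, was low in all vessels. It went from 0.19, 0.20, 0.11 and 0.55 FPKM in day 14 controls to 2.39, 1.07, 1.70 and 2.62 FPKM in grafts, without overlap (log2 change 1.20, SE 0.22, adjusted p = 0.00017). On day 30 there were 0.61, 1.35, 0.40 and 0.58 FPKM in controls and 1.05, 2.36, 1.29 and 2.37 FPKM in grafts, with overlap. That change of 0.67 (SE 0.22) passed (adjusted p = 0.0233). It did not pass without control replicate 1 (adjusted p = 0.0501), 3 (0.0706) or 4 (0.0568) or without graft replicate 2 (0.0776) or 4 (0.0803), nor with only the groups compared (0.063) or to TPM (0.121). Over all its alternatives the adjusted p ran from 0.00878 to 0.121.

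ADAM10, the sheddase that starts Notch receptor cleavage, did not pass on either day. Levels were 2.12, 3.87, 3.62 and 2.40 FPKM in day 14 controls and 2.54, 1.67, 4.42 and 3.39 FPKM in grafts, fully intermixed (log2 change -0.02, SE 0.34, adjusted p = 0.966). At day 30 the controls held 1.39, 3.01, 2.76 and 3.27 FPKM, all below the grafts at 6.43, 3.65, 3.46 and 6.25 FPKM. The change of 0.72 (SE 0.34) did not pass (adjusted p = 0.109). ADAM17, the related sheddase of tumour necrosis factor, was listed at no more than 0.17 FPKM in any library and was not tested.

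Among the ADAMTS enzymes that cleave proteoglycans, ADAMTS5 rose, ADAMTS1 and ADAMTS4 varied widely between libraries and did not pass, and ADAMTS15 fell at day 14. ADAMTS5, a major aggrecanase, was at 2.78, 2.84, 2.89 and 2.03 FPKM in day 14 controls and at 9.46, 6.14, 6.11 and 5.11 FPKM in grafts. Grafts were higher without overlap (log2 change 1.06, SE 0.32, adjusted p = 0.00861), a call lost with the 4 day 14 controls counted as 1 sample (adjusted p = 0.169, range 0.00184 to 0.169). By day 30 the controls were at 2.67, 5.0, 8.26 and 1.82 FPKM and grafts 18.4, 13.6, 10.96 and 12.9 FPKM, again without overlap (log2 change 1.59, SE 0.32, adjusted p = 0.000623).

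ADAMTS1 cleaves versican and aggrecan and is known as a gene quickly induced by injury and inflammation. After TIMP3 it was the most abundant member in day 30 controls and in veins, and the most abundant of all in day 30 grafts. Day 14 controls held 38.6, 40.5, 38.5 and 36.6 FPKM, while grafts ranged over 146, 79.5, 33.3 and 13.6 FPKM. Grafts 1 and 2 lay above all controls and grafts 3 and 4 below them, and the log2 change of 0.32 (SE 0.49) did not pass (adjusted p = 0.605). Day 30 controls held 76.7, 84.3, 99.4 and 63.5 FPKM and grafts 239, 82.4, 138 and 152 FPKM. The change of 0.83 (SE 0.49) did not pass either (adjusted p = 0.203).

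ADAMTS4, the other main aggrecanase, was near 0 in most vessels and high in a few. It was listed at 0.05, 0, 0.06 and 0.12 FPKM in day 14 controls and at 1.74, 2.25, 0.20 and 0.07 FPKM in their grafts. In day 30 controls it was at 0.64, 24.2, 50.8 and 0.33 FPKM, and in day 30 grafts at 54.4, 0.65, 14.5 and 18.9 FPKM. The unoperated arteries of day 30 therefore held both the lowest and nearly the highest of these day 30 values. Neither graft change passed, with 0.80 (SE 1.04, adjusted p = 0.544) at day 14 and 0.83 (SE 1.04, adjusted p = 0.58) at day 30. With 1 library left out the change ran from 0.53 to 1.06 at day 14 and from 0.01 (without control replicate 4) to 1.82 (without graft replicate 2) at day 30. Veins were listed at 0 in replicates 1 to 3 and at 0.14 FPKM in replicate 4.

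ADAMTS15, another proteoglycan-cleaving enzyme, differed between the days in both arteries. Day 14 controls held 20.6, 22.2, 23.3 and 22.6 FPKM and day 14 grafts 11.2, 9.14, 15.0 and 15.7 FPKM. The graft was lower without overlap, by -0.78 on the log2 scale (SE 0.16, adjusted p = 0.000413). Day 30 controls held only 4.99, 5.19, 4.40 and 3.48 FPKM, and day 30 grafts 5.33, 4.05, 3.20 and 4.54 FPKM. The day 30 groups overlapped, and the change of -0.07 (SE 0.16) did not pass (adjusted p = 0.775). Veins were lowest, between 2.13 and 2.68 FPKM. In the table of RefSeq genes of a rabbit assembly ADAMTS15 is the direct neighbour of ADAMTS8, which stayed at or below 0.31 FPKM in all libraries, and ADAMTS1 is the direct neighbour of ADAMTS5.

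ADAMTS2 removes the amino-terminal propeptide from fibrillar procollagens. It was at 22.6, 23.3, 22.8 and 24.5 FPKM in day 14 controls and at 27.2, 30.6, 36.7 and 39.5 FPKM in grafts. The grafts were all higher, by 0.49 (SE 0.14, adjusted p = 0.00752). This small change did not pass after scaling by the median of ratios (adjusted p = 0.232) or to TPM (0.365), with the day 14 controls as 1 sample (0.164) or without the mixture-like libraries (0.0509), within a range of 0.00134 to 0.365. At day 30 controls held 51.2, 36.9, 34.0 and 28.0 FPKM and grafts 67.8, 54.6, 58.6 and 62.4 FPKM, without overlap. That change was 0.71 (SE 0.14, adjusted p = 0.000698), lost only after rescaling to TPM (adjusted p = 0.123, range 3.01e-05 to 0.123). ADAMTS3, a second procollagen enzyme that also activates the lymphatic growth factor VEGFC, lay between 0.56 and 2.70 FPKM in all libraries and did not pass on either day.

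ADAMTS12 and ADAMTS7 are related enzymes known to degrade cartilage oligomeric matrix protein, and ADAMTS7 is known from human genetics of coronary disease. ADAMTS12 was at 1.13, 1.17, 1.12 and 1.18 FPKM in day 14 controls and at 4.31, 4.19, 8.09 and 7.94 FPKM in grafts. It rose without overlap, by 1.68 (SE 0.23, adjusted p = 6.46e-06). At day 30 the controls held 1.36, 1.89, 2.89 and 1.31 FPKM and the grafts 14.3, 11.6, 6.37 and 10.2 FPKM, an increase of 2.00 (SE 0.23, adjusted p = 1.93e-06).

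ADAMTS7 was low throughout and listed at 0.14, 0, 0 and 0 FPKM in day 14 controls. Grafts held 0.43, 1.06, 1.34 and 1.68 FPKM, all higher (log2 change 1.00, SE 0.29, adjusted p = 0.00737), a call lost with the day 14 controls as 1 sample (adjusted p = 0.16, range 0.00175 to 0.16). At day 30 controls from 0.13 to 0.74 FPKM overlapped with grafts between 0 and 1.59 FPKM (log2 change 0.27, SE 0.29, adjusted p = 0.506). ADAMTS16 was listed between 0 and 5.77 FPKM and did not pass on either day. COMP itself was not found by symbol and is not analysed here.

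ADAMTS10, known for its binding to fibrillin and for mutations in a disorder of short stature and lens dislocation, was listed at 0 in all 8 grafts. It was at 3.65, 4.69, 3.92 and 4.40 FPKM in day 14 controls, at 7.33, 2.35, 1.90 and 2.72 FPKM in day 30 controls and at 3.56, 5.05, 3.08 and 3.46 FPKM in veins. The test called it lower on both days (adjusted p = 1.45e-07 and 1.79e-06), and no fold is given against groups listed at 0. The gene next to it in the RefSeq table, MYO1F, a myosin of leukocytes, showed the opposite listing. MYO1F was at 0 in all day 14 controls and all veins and at no more than 1.21 FPKM in day 30 controls. It was at 12.8, 9.07, 55.1 and 65.6 FPKM in day 14 grafts and between 5.47 and 22.0 FPKM in day 30 grafts. Its part in the ADAMTS10 values was not tested.

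**Figure D2:**
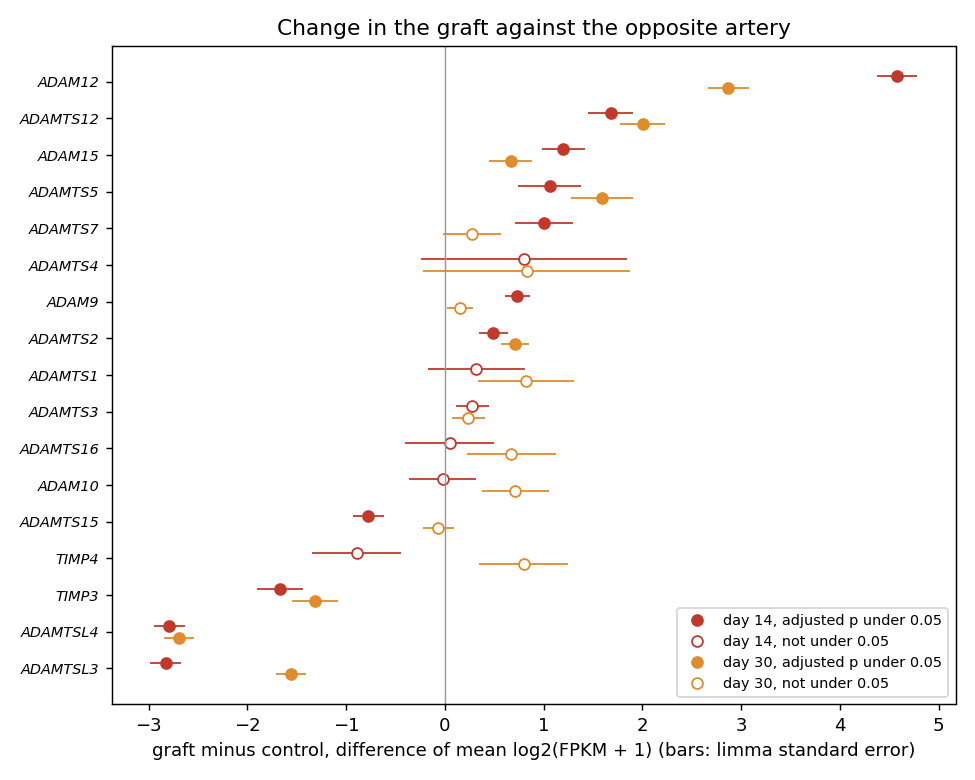
Difference between graft and opposite control artery for 17 tested members, as the difference of mean log2(FPKM + 1), with bars for limma's standard error and filled points for adjusted p under 0.05. ADAMTS10 is left out because all grafts are listed at 0, and the largest rise is that of ADAM12 and the largest falls are those of ADAMTSL3 and ADAMTSL4 at day 14.

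Among the members lower in grafts with a level above 0, both ADAMTS-like genes had the largest log2 changes on each day. ADAMTSL4 binds fibrillin-1 and is known for lens dislocation when mutated. It was at 18.4, 17.5, 16.1 and 15.9 FPKM in day 14 controls and at 2.01, 1.15, 1.83 and 1.47 FPKM in grafts, a wide gap (log2 change -2.79, SE 0.16, adjusted p = 1.58e-10). At day 30 controls held 21, 24.4, 22.5 and 27.6 FPKM and grafts 3.44, 1.97, 3.45 and 2.69 FPKM. The groups were again far apart (log2 change -2.69, SE 0.16, adjusted p = 8.37e-10). In the RefSeq table ADAMTSL4 overlaps MCL1, and strand use in the counting is not given in the sources used here. MCL1, a survival factor of many cells, lay between 42.9 and 105 FPKM over all libraries, and its part in the ADAMTSL4 values was not tested.

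ADAMTSL3, a secreted glycoprotein related to ADAMTSL1, was at 17.9, 19.3, 18.2 and 18.3 FPKM in day 14 controls and at 2.45, 1.81, 1.64 and 1.17 FPKM in grafts (log2 change -2.83, SE 0.15, adjusted p = 1.27e-10). Day 30 controls held 15.1, 17.4, 18.3 and 16.7 FPKM and grafts 5.37, 3.16, 6.38 and 5.93 FPKM. The groups stayed apart, with a smaller change of -1.56 (SE 0.15, adjusted p = 4.27e-07). Veins lay between arteries and grafts for both genes, at 7.85 to 8.64 FPKM for ADAMTSL3 and 7.85 to 12.4 FPKM for ADAMTSL4.

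TIMP3 was the most abundant member in both groups of control arteries and in veins. Day 14 controls held 115, 123, 126 and 111 FPKM and grafts 61.6, 42.9, 27.0 and 24.9 FPKM. All grafts were lower, by -1.67 on the log2 scale (SE 0.23, adjusted p = 9.41e-06). At day 30 controls held 162, 151, 166 and 125 FPKM and grafts 82.6, 55.1, 46.1 and 60.9 FPKM, again without overlap (log2 change -1.31, SE 0.23, adjusted p = 0.000224). TIMP3 lies across SYN3 in the RefSeq table, and SYN3 was not found by symbol.

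TIMP4, an inhibitor known from heart and vessels, did not pass on either day. It was at 4.38, 4.03, 4.58 and 3.47 FPKM in day 14 controls and at 2.89, 1.02, 2.26 and 1.21 FPKM in grafts, all lower (log2 change -0.89, SE 0.45, adjusted p = 0.104). At day 30 controls held 2.54, 6.11, 9.72 and 1.16 FPKM and grafts 15.4, 5.05, 5.39 and 7.41 FPKM, with overlap (log2 change 0.80, SE 0.45, adjusted p = 0.18). The call changed with the setting: TIMP4 was lower at day 14 by the median of ratios (adjusted p = 0.0467) and with only the groups compared (adjusted p = 0.0113, range 0.0113 to 0.437). At day 30 it was called higher without control replicate 3 (1.17, adjusted p = 0.045, range 0.045 to 0.514), and its change ran from 0.40 to 1.17 with 1 library left out. TIMP1 was listed at no more than 0.12 FPKM in any library, and TIMP2 was not found by symbol. COL3A1, a chain of the main collagen of vessel walls, was likewise listed at no more than 0.69 FPKM, so a very low listed value is not read here as absence of the transcript.

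**Figure D3:**
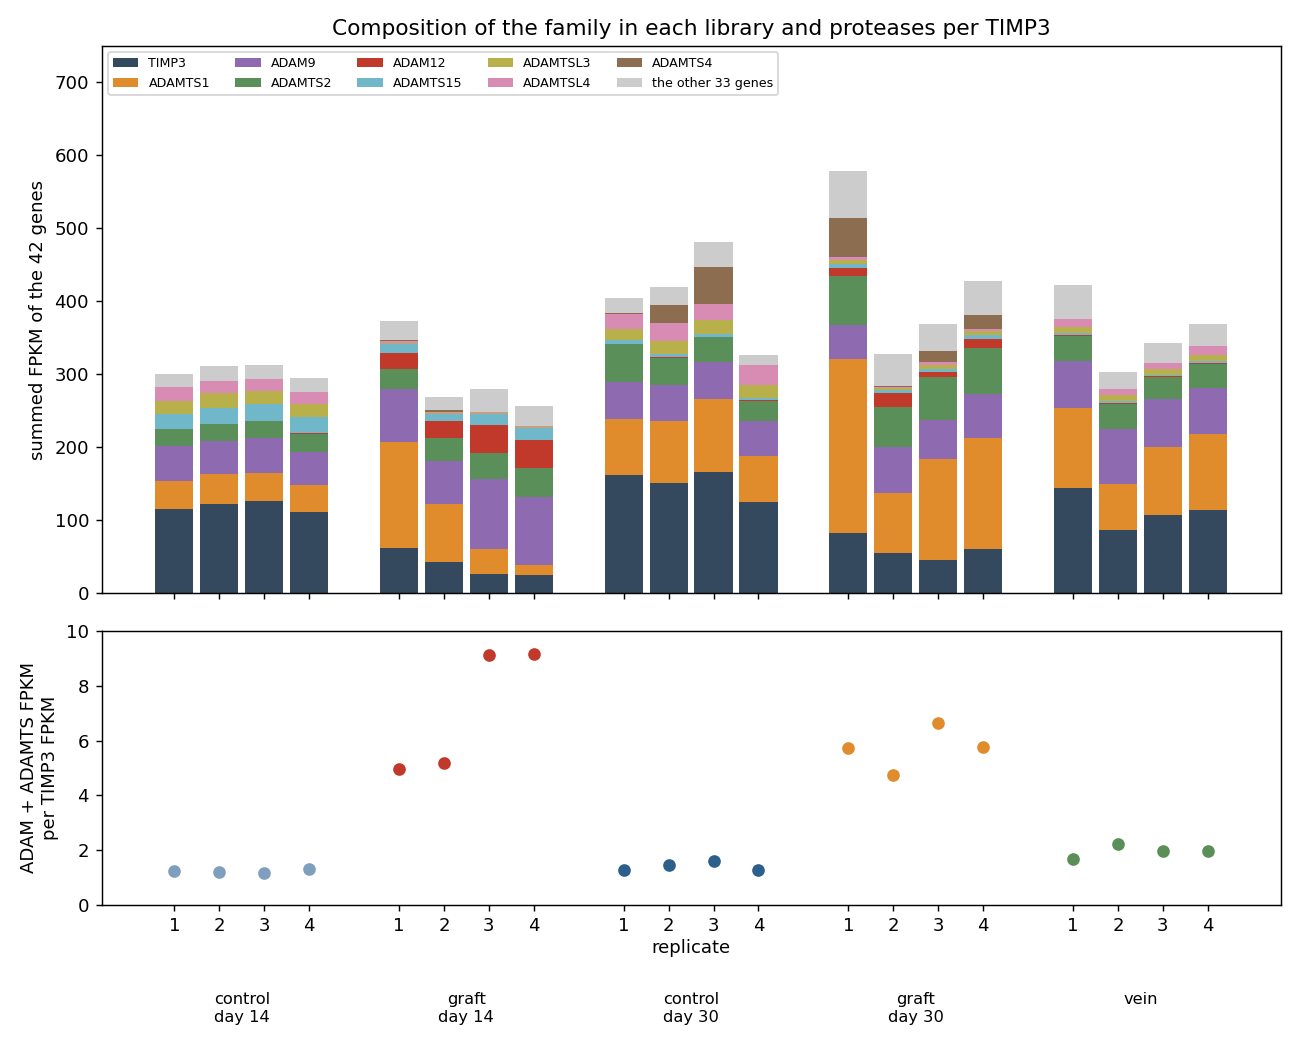
Upper panel: summed FPKM of the 42 members in each library as stacked bars, with 9 members in colour and all others in grey. Lower panel: summed FPKM of all ADAM and ADAMTS genes divided by the FPKM of TIMP3 in the same library, which lies between 4.75 and 9.16 in the grafts and between 1.17 and 2.23 in the unoperated vessels.

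Within a library, ratios between members do not depend on the scaling between libraries. They still compare listed FPKM of different genes, and a gene with a failed estimate would be listed too low. TIMP3 made up between 37.7% and 40.4% of the FPKM of all 42 members in day 14 controls and between 34.6% and 40.0% in day 30 controls. Its share was between 9.64% and 16.5% in day 14 grafts, between 12.5% and 16.8% in day 30 grafts and between 28.9% and 34.1% in veins. The summed FPKM of the members themselves was similar in day 14 controls (294.9 to 313) and grafts (257 to 374). For each FPKM of TIMP3 there were between 1.17 and 1.31 FPKM of ADAM and ADAMTS genes in day 14 controls and between 4.95 and 9.16 in day 14 grafts. At day 30 the range was 1.26 to 1.58 in controls and 4.75 to 6.65 in grafts, and it was 1.69 to 2.23 in veins. At day 14 the sum of proteases was between 144 and 148 FPKM in controls and between 222 and 304 FPKM in grafts, without overlap. At day 30 these sums overlapped, with 157 to 264 FPKM in controls and 262 to 472 FPKM in grafts. These sums and ratios were not tested, since the members were chosen with results known. ADAM12 alone formed between 5.91% and 15.1% of the members' FPKM in day 14 grafts and at most 0.277% in any unoperated vessel.

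Day 30 grafts held more ADAMTS2, ADAMTSL3 and other members than day 14 grafts, and less ADAM12, ADAM9 and ADAMTS15. Of 18 members 11 passed, 8 higher and 3 lower at day 30, against 16.3% of all genes, 8.01% higher and 8.31% lower. The median log2 change was 0.64 for members and -0.04 for all genes. In the control arteries over the same days these medians were 0.41 and 0.05. After rescaling to TPM, 765 genes were higher and 93 lower in day 30 grafts, in place of 693 and 719. The median of all genes was then 0.10, and 7 members were higher and 2 lower. Using the values above, ADAM12 was lower by -1.24 (SE 0.21, adjusted p = 0.00068), ADAMTS15 by -1.37 (SE 0.16, adjusted p = 2.11e-05) and ADAM9 by -0.50 (SE 0.13, adjusted p = 0.0136). ADAMTSL3 was higher by 1.15 (SE 0.15, adjusted p = 0.000109) and ADAMTS2 by 0.85 (SE 0.14, adjusted p = 0.000774). In the control arteries ADAMTS15 was also lower (-2.08) and ADAMTS2 also higher (0.63) at day 30. For ADAMTS2 the difference of the graft effects between days was 0.22 and did not pass (limma adjusted p = 0.518). The other calls in grafts were higher TIMP4 (1.64), ADAMTS1 (1.54), ADAMTS16 (1.38), ADAMTS5 (0.96), ADAMTS12 (0.71) and ADAMTSL4 (0.56), with adjusted p from 0.0194 to 0.0453. The ADAMTS1 change was 0.95 without graft day 14 replicate 4 (adjusted p = 0.112) and ran up to 2.07 without graft day 14 replicate 1 (adjusted p = 0.0028), in a range of adjusted p from 0.0028 to 0.232.

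Only the calls of ADAMTS15, ADAMTS2 and ADAMTSL3 held under every alternative of this comparison. The count was 4 without graft day 30 replicate 1 (10.6% of all genes called) and 4 without the mixture-like libraries (4.90%). It was 7 without graft day 14 replicate 3 (11.4%) and 7 without graft day 30 replicate 4 (11.6%). It was also 7 without control day 14 replicate 1, 3 or 4 (14.3%, 14.5% and 14.4%). ADAM12 failed with only the groups compared (adjusted p = 0.0549, range 0.000109 to 0.0549). TIMP3 itself was higher by 0.69 (SE 0.23), just outside the threshold (adjusted p = 0.0505).

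The graft effect, that is graft against control, differed between the days in 4 members by the test of the difference itself, 2 more positive and 2 more negative at day 30, against 12.9% of all genes, 5.38% and 7.57%. ADAM12 rose less at day 30 than at day 14 (difference -1.71, SE 0.29, adjusted p = 0.00112), and ADAMTSL3 fell less (difference 1.27, SE 0.22, adjusted p = 0.0012). Both calls were lost with the day 14 controls counted as 1 sample (adjusted p = 0.0694 and 0.0727, ranges 0.000239 to 0.0694 and 6.54e-05 to 0.0727). ADAM9 (difference -0.58, adjusted p = 0.0426, range 0.00497 to 0.357) and ADAMTS15 (difference 0.71, adjusted p = 0.0419, range 0.0107 to 0.353) stood near the threshold and kept their calls in 9 of 30 alternatives each. The count was 2 without any 1 of the day 14 controls, without control day 30 replicate 4, without graft day 30 replicate 1 or without vein replicate 1, 3 or 4. In these settings between 9.99% and 12.5% of all genes were called. Median-of-ratios scaling gave 597 higher and 533 lower genes here in place of 466 and 655.

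The unoperated arteries of the 2 days were not alike either. Of the members 2 passed, against 10.7% of all genes, with 1 higher (background 6.28%) and 1 lower (background 4.45%). The median log2 change was 0.41 for members and 0.05 for all genes. ADAMTS15 fell from 22.2 ± 1.12 FPKM in day 14 controls to 4.51 ± 0.767 FPKM in day 30 controls (n = 4 each), a log2 change of -2.08 (SE 0.16, adjusted p = 1.74e-07) that passed under all 29 alternatives. ADAMTS2 rose, with 23.3 ± 0.858 FPKM on day 14 and 37.5 ± 9.83 FPKM on day 30 (log2 change 0.63, SE 0.14, adjusted p = 0.00808), a call lost with the day 14 controls as 1 sample (adjusted p = 0.485) and without the mixture-like libraries (0.0571), within a range of 0.000958 to 0.485. ADAMTS4, at 0 to 0.12 FPKM on day 14 and 0.33 to 50.8 FPKM on day 30, was higher by 2.79 (SE 1.04) and did not pass (adjusted p = 0.101). It passed in 4 of 29 alternatives: the pseudocount of 0.1 FPKM (0.0349), group weights (0.0327), and without control day 30 replicate 1 (0.0476) or 4 (0.0323). Its adjusted p ran from 0.0323 to 0.871 over the alternatives. Without control day 30 replicate 1 the count was 4 members. ADAMTS1 lay without overlap above its day 14 level in day 30 controls (log2 change 1.03, SE 0.49) and did not pass either (adjusted p = 0.199), but passed with only the groups compared (0.00231) and with group weights (0.0419), in a range of 0.00231 to 0.942. ADAMTSL4 was also higher in each day 30 control (log2 change 0.47, SE 0.16, adjusted p = 0.0641). It passed in 6 of 29 alternatives: the filter of 5 FPKM (0.0493), TPM (0.0339), only the groups compared (0.0169), group weights (0.0249), and without graft day 14 replicate 2 (0.0499) or graft day 30 replicate 2 (0.0437). Its adjusted p ran from 0.0169 to 0.799. After rescaling to TPM, 2 members were higher and 1 lower, and the genes in all were 796 higher and 152 lower in place of 544 and 385. ADAM12 (log2 change 0.47, limma adjusted p = 0.164), ADAMTS2, ADAMTS4 and ADAMTS12 also lay without overlap above their day 14 levels, and ADAMTS15 below. The day 14 controls were nearly alike, and the share of all genes without overlap is not given for the controls. Lack of overlap is therefore not read here as particular to the members.

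Unoperated vein differed from the unoperated arteries in 7 members, 4 higher and 3 lower, against 37.1% of all genes, 25.2% higher and 12% lower. The lower ones were ADAMTS15 (log2 change -1.72, SE 0.14, adjusted p = 2.4e-08), ADAMTSL3 (-1.0, SE 0.13, adjusted p = 1.25e-05) and ADAMTSL4 (-0.95, SE 0.13, adjusted p = 2.42e-05), all without overlap with any of the 8 control arteries and called under every alternative. The share of all genes without overlap is not given for vein. ADAM9 was higher in vein, at 64.0, 75.1, 65.1 and 63.3 FPKM (log2 change 0.45, SE 0.11, adjusted p = 0.00376), a call lost after rescaling to TPM (adjusted p = 0.138, range 3.73e-05 to 0.138). ADAMTS5 (0.83), ADAMTS7 (0.83) and ADAMTS12 (0.58) were called higher with adjusted p from 0.0146 to 0.0271. None of these 3 held without vein replicate 1, which left 4 members, or with the day 14 controls as 1 sample, which also left 4. By the median of ratios 2 members were higher and 3 lower, and the genes in all were 1583 higher and 1544 lower in place of 2178 and 1036. Mean levels of ADAMTSL3 and ADAMTSL4 in day 14 grafts were 1.77 and 1.61 FPKM, beside 8.30 and 10.1 FPKM in vein, a difference that was not tested.

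**Figure D4:**
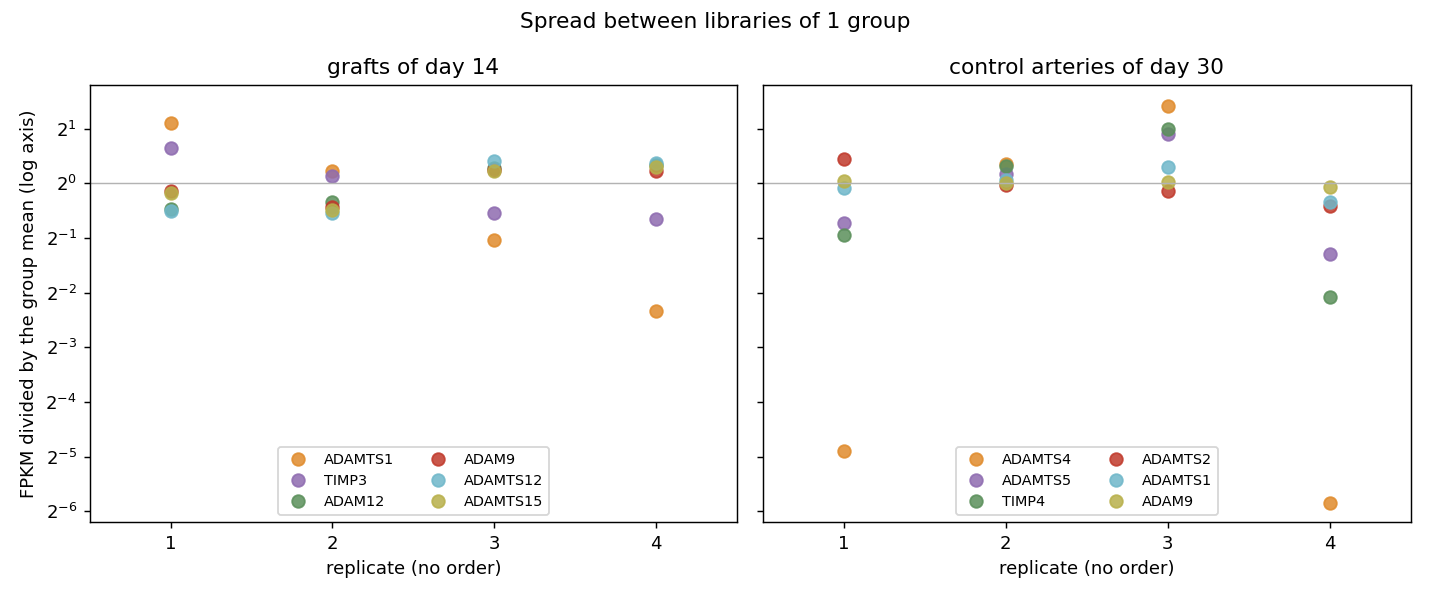
FPKM of 6 members in each library, divided by the mean of the group, on a log axis, for the grafts of day 14 (left) and the control arteries of day 30 (right). In the grafts, ADAMTS1 and TIMP3 lie above their means in replicates 1 and 2 and below them in replicates 3 and 4, and in the controls ADAMTS4, ADAMTS5 and TIMP4 lie above their means in replicates 2 and 3.

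Members also split the libraries within groups. Among the grafts of day 14, replicates 1 and 2 held more ADAMTS1, ADAMTS4, ADAMTS5, ADAMTSL3 and TIMP3, and replicates 3 and 4 more ADAM9, ADAM10, ADAM12, ADAMTS2, ADAMTS3, ADAMTS7, ADAMTS12, ADAMTS15 and ADAMTS16. For ADAMTS5 the gap was only that between 6.14 and 6.11 FPKM. The share of all genes that split the same way is not given here, so the split is not read as particular to the members. Replicate 3 is the mixture-like library of that group. Some marker sums moved along with this split and others did not. Endothelial markers summed to 354, 401, 172 and 134 FPKM in replicates 1 to 4. Fibroblast sums (764, 651, 483 and 442 FPKM), neutrophil sums (153, 105, 72.5 and 73.9 FPKM) and skeletal muscle sums (42, 78.7, 12.3 and 6.91 FPKM) were also higher in replicates 1 and 2. Macrophage sums (317, 211, 367 and 391 FPKM) and Schwann cell sums (0.43, 0.74, 2.16 and 2.12 FPKM) were higher in replicates 3 and 4. Adipocyte markers summed to 128, 170.1, 486 and 567 FPKM, and markers of dividing cells to 14.5, 20.2, 30.5 and 32.1 FPKM. T cell sums were 6.59, 7.95, 8.44 and 9.47 FPKM. Smooth muscle sums (609, 1013, 777 and 784 FPKM) and B and plasma cell sums (72.0, 32.2, 50.2 and 48.4 FPKM) did not follow the split. In the controls of day 30, replicates 2 and 3 held the most ADAMTS1, ADAMTS3, ADAMTS4, ADAMTS5, ADAMTS12, ADAMTS16, ADAMTSL3 and TIMP4, again without the share of all genes. Neutrophil markers summed to 11.8, 615, 1014 and 370 FPKM in replicates 1 to 4 of that group, and to between 359 and 408 FPKM in day 14 controls. Endothelial (102, 127, 169 and 76.0 FPKM), macrophage (20.7, 25.8, 33.8 and 15.9 FPKM) and adipocyte sums (19.0, 103, 164 and 37.7 FPKM) were likewise highest in replicates 2 and 3. Smooth muscle sums (6953, 6453, 5751 and 8144 FPKM) were lowest in these replicates. Fibroblast (1273, 747, 714 and 470 FPKM), Schwann cell (38.1, 57.4, 22.8 and 77.6 FPKM) and skeletal muscle sums (516, 491, 594 and 470 FPKM) did not follow this pattern. T cell (0.17, 0.86, 0.42 and 2.36 FPKM) and B and plasma cell sums (1.59, 9.23, 14.2 and 10.4 FPKM) did not either. The part of these cells in the values was not tested.

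In whole vessels, fewer cells of a type and less RNA per cell cannot be told apart. Smooth muscle markers, 8 of 10 found by symbol, summed to between 7749 and 8022 FPKM in day 14 controls and between 609 and 1013 FPKM in day 14 grafts, and to 5751 to 8144 and 1396 to 1858 FPKM at day 30. Of 6 tested, 5 were lower on each day and 1 was higher at day 30, and SMTN was listed at 0 in every group. Veins had smooth muscle sums of 3097 to 3455 FPKM. Macrophage markers, 10 of 12 found, summed to between 10.6 and 12.5 FPKM in day 14 controls and 211 to 391 FPKM in grafts, and to 15.9 to 33.8 and 189 to 268 FPKM at day 30, with 4 of 5 tested higher on each day. AIF1, C1QA, C1QB and MARCO were listed at 0 in all day 14 controls. Endothelial sums went from between 58.6 and 61.7 to between 134 and 401 FPKM at day 14, with PECAM1 at 0 in all control arteries and 5 of 8 tested markers higher and 1 lower, and to between 393 and 443 FPKM in day 30 grafts against 76.0 to 169 FPKM in their controls, with 6 of 8 higher.

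Schwann cell markers fell in 5 of 5 tested genes at day 14 (sums of 60.7 to 72.0 against 0.43 to 2.16 FPKM) and in 3 of 5 at day 30. Skeletal muscle markers fell in 3 of 3 at day 14 (560 to 621 against 6.91 to 78.7 FPKM) and in 3 of 3 at day 30. T cell markers rose in 3 of 3 tested genes on each day. B and plasma cell markers rose in 3 of 3 at day 14 and in 2 of 3 at day 30. Fibroblast sums overlapped at day 14 (592 to 621 FPKM in controls and 442 to 764 FPKM in grafts), with 1 of 5 tested genes higher and 1 lower. They overlapped at day 30 as well (470 to 1273 and 917 to 1108 FPKM), with 2 of 5 higher and 0 lower. Adipocyte markers rose in 2 of 2 tested genes at day 14 (25.9 to 29.7 against 128 to 567 FPKM) and in 1 of 2 at day 30. Markers of dividing cells rose in 4 of 4 at day 14 (0.80 to 0.92 against 14.5 to 32.1 FPKM) and in 3 of 4 at day 30. Neutrophil sums were lower in day 14 grafts (72.5 to 153 FPKM) than in controls (359 to 408 FPKM), with 0 of 3 tested genes called. At day 30 these sums overlapped (11.8 to 1014 FPKM in controls and 87.6 to 207 FPKM in grafts), with 1 of 3 lower. Beside all these marker counts, 36.5% of all genes were higher and 17.0% lower at day 14, and 26.0% and 11.6% at day 30. The part of changed cell numbers in the members' values was not tested for any of these cell types.

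The 24 members that were not tested stayed at or below 1.40 FPKM in every library. Of these, 13 never exceeded 0.2 FPKM, and ADAM6, ADAM30 and ADAMTS9 were listed at 0 throughout. In 1 of them, ADAMTS18, all 8 grafts lay above all 12 unoperated vessels, and it was picked out after its values were seen. It was at 0.34, 1.16, 0.25 and 0.43 FPKM in day 14 grafts and at 1.11, 1.16, 0.60 and 0.79 FPKM in day 30 grafts. Control arteries did not exceed 0.04 FPKM and veins 0.17 FPKM. ADAM8, known from neutrophils and macrophages, was listed at no more than 0.13 FPKM, ADAM33 at 0.34 FPKM and ADAM28 at 0.10 FPKM. The highest values of ADAM19 and ADAMTSL1 were 1.21 and 1.40 FPKM.

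Genes that act with the family were followed in lists chosen with earlier results of these data known. Of genes that mature or carry ADAMs, 8 of 13 were tested. At day 14, 5 were higher and 2 lower (median log2 change 1.09, beside 0.26 over all genes), and at day 30, 5 were higher and 1 lower (median 0.87, beside 0.18). Over all genes 36.5% were higher and 17.0% lower at day 14, and 26.0% and 11.6% at day 30. FURIN, the convertase that removes the prodomain of many ADAMs, rose at day 14, from 16.2 ± 0.872 FPKM in controls to 53.3 ± 28.7 FPKM in grafts (log2 change 1.49, SE 0.30, adjusted p = 0.000391). TSPAN14, a tetraspanin that carries ADAM10, rose by 1.21 (SE 0.17, adjusted p = 7.38e-06). PCSK7, another convertase, was listed at 170.5 ± 4.03 and 27.2 ± 11.4 FPKM (log2 change -2.68, SE 0.19, adjusted p = 2.87e-09). Its direct neighbour in the RefSeq table is the smooth muscle gene TAGLN, and reads of adjoining genes cannot be separated here, so the PCSK7 level is uncertain.

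Membrane proteins known to be shed by ADAM10 or ADAM17 were tested in 16 of 27 cases. At day 14, 9 were higher and 1, NOTCH2, lower (median 1.01), and at day 30, 5 were higher and 1, SDC4, lower (median 0.38). Over all genes 36.5% were higher and 17.0% lower at day 14 (median 0.26) and 26.0% and 11.6% at day 30 (median 0.18), so the day 30 count is near the background. TNFRSF1B, the second tumour necrosis factor receptor, rose at day 14, with 3.82 ± 0.417 FPKM in controls and 24.3 ± 6.90 FPKM in grafts (log2 change 2.36, SE 0.23, adjusted p = 1.16e-07). CDH5, the cadherin of endothelium, rose by 2.41 (SE 0.24) and TNFRSF1A, the first such receptor, by 1.03 (SE 0.11). VCAN, the versican that ADAMTS1, ADAMTS4 and ADAMTS5 cleave, was at 1.95 ± 1.29 FPKM in controls and 5.63 ± 1.53 FPKM in grafts and did not pass (log2 change 1.23, SE 0.63, adjusted p = 0.111).

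Matrix substrates and partners of ADAMTS enzymes went both ways, with 13 of 20 tested. At day 14, 5 were higher and 6 lower (median -0.08), and at day 30, 5 were higher and 4 lower (median 0.28). The shares over all genes were 36.5% and 17.0% at day 14 (median 0.26) and 26.0% and 11.6% at day 30 (median 0.18). COL1A2, whose procollagen ADAMTS2 trims, rose by 2.35 (SE 0.16, adjusted p = 1.75e-09) at day 14, and VWF, the substrate of ADAMTS13 in blood, by 2.96 (SE 0.22, adjusted p = 6.43e-09). ADAMTS13 itself was listed at no more than 0.07 FPKM. PCOLCE2, which helps the release of the other, carboxy-terminal propeptide, fell to 13.8 ± 5.37 FPKM, from 128 ± 1.44 FPKM in controls (log2 change -3.21, SE 0.20, adjusted p = 6.4e-10). The proteoglycans among the lower genes were ACAN (-0.83), DCN (-0.66), BGN (-0.61) and FMOD (-1.20).

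Matrix metalloproteinases, the other targets of TIMPs, were tested in 13 of 19 cases. At day 14, 9 were higher (median 2.02), and at day 30, 8 were higher and 1, MMP28, lower (median 1.12), beside 36.5% (median 0.26) and 26.0% (median 0.18) of all genes higher on these days. MMP12, the macrophage elastase, went from 0.0675 ± 0.0287 to 374 ± 148 FPKM at day 14 (log2 change 8.37, SE 0.30, adjusted p = 1.53e-12). MMP14, a membrane-bound collagenase, went from 13.7 ± 1.98 to 204 ± 33.2 FPKM (3.79, SE 0.14), and MMP9, a gelatinase, from 1.31 ± 0.248 to 149.7 ± 74.9 FPKM (5.88, SE 0.36). In the same libraries TIMP3 was at 119 ± 6.94 and 39.1 ± 17.0 FPKM. Of the other inhibitors, 1 of 4 was tested. PAPLN, papilin, an ADAMTS-related inhibitor, had a log2 change of 0.20 (SE 0.14, adjusted p = 0.261) at day 14 and rose by 0.70 (SE 0.14, adjusted p = 0.000848) at day 30. RECK and A2M, which also block metalloproteases, were not tested because of low listed values.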

How the data were processed

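The authors deposited 1 table of FPKM with 24964 transcript rows and Ensembl gene IDs, whose 20 columns were matched to samples by library name. The submitters' processing notes name fastp, HISAT2, StringTie, RSEM and DESeq2, and versions, strand use and genome build are not given in the sources used here. The depth per library is unknown, so no counting interval is given, and FPKM carries over any difference in how each library was scaled.

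FPKM was summed per gene ID (44 member rows, 42 genes). The 8657 genes that reached 1 FPKM in 4 or more libraries were tested with limma 3.58.1 in R 4.3.3 on log2(FPKM + 1), with 1 mean per group over all 20 libraries, a trend of variance with level, two-sided p-values and Benjamini-Hochberg adjustment over all of them. The steps were tested on simulated data. Errors are SD for FPKM and limma's SE for log2 changes. A mixture-like library is the one of its group nearest to a weighted mean of the other 3 (weights in steps of 0.05, genes averaging at least 10 FPKM). RefSeq (mOryCun1.1, 41 of 42 members found by symbol) gave names and neighbours only.

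Members and gene lists were chosen with earlier results of these data known. Values in every library were to be given for members that passed on either day and averaged 5 FPKM or more in some group, for TIMPs and for ADAM10, ADAM17, ADAMTS1, ADAMTS4 and ADAMTS5. From each list of other genes the 3 with the smallest adjusted p at day 14 were to be named. ADAM15, ADAMTS7, ADAMTS10, ADAMTS18, MYO1F, MCL1, VCAN, COL3A1, NOTCH2, SDC4, MMP28 and the 4 lower proteoglycans were added after their values were seen.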

Additional observations from a re-analysis of the deposited data

Results flagged for a closer look

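In 90 groups of 4 libraries (18 members in 5 groups) 1 library lay far from the other 3 in 5 groups, where chance gives about 1 in 20. These were ADAM9 in vein (75.09 FPKM in replicate 2), ADAMTS10 in day 30 controls (7.33 FPKM in replicate 1), ADAMTS4 in vein (0.14 FPKM in replicate 4), ADAMTS5 in day 14 controls (2.03 FPKM in replicate 4) and ADAMTS7 in day 14 controls (0.14 FPKM in replicate 1).

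The graft effect differed between day 14 and day 30, by limma's test of the difference, for ADAM12 (-1.71), ADAM9 (-0.58), ADAMTS15 (0.71) and ADAMTSL3 (1.27) on the log2 scale. For ADAMTS15 the levels that moved between the days were those of the unoperated controls, from 22.2 to 4.51 FPKM, and of the grafts, from 12.8 to 4.28 FPKM.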

How the results depend on the processing

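Alternatives were a pseudocount of 0.1 FPKM, a filter of 5 FPKM or none, scaling by the median of ratios or to TPM, only the groups compared, weights for each group, each library left out in turn, the day 14 controls as 1 sample, no mixture-like libraries, and the replicate number as a block. Of 45 member calls 22 were kept under every alternative, 23 were lost under at least 1 and 0 changed direction; of 14 uncalled results 5 were called under at least 1. At day 14 the count was 12 of 18 tested, beside 53.5% of all genes. It was 16 of 39 tested with no filter (32.8% of all genes) and 9 of 12 with the filter of 5 FPKM (62.5%). To TPM it was 10 of 18 (43.5%). At day 30 it was 9 of 18, beside 37.6% of all genes, and 14 of 39 tested with no filter (23.1%). For the difference between days (4) it was 2 with no filter, to TPM, with only the groups compared or without the mixture-like libraries, 0 by limma with the day 14 controls as 1 sample (4 members at an unadjusted p under 0.05), and 2 to 4 with a library left out. For grafts between days (11) it was 7 with no filter or the day 14 controls as 1 sample, 4 with only the groups compared or without the mixture-like libraries, 5 with group weights, and 4 to 12 with a library left out. For controls between days (2) it was 4 with the smaller pseudocount, 5 with only the groups compared or group weights, 1 with the day 14 controls as 1 sample or without the mixture-like libraries, and 2 to 4 with a library left out. For vein (7) it was 11 with no filter, where 39 members were tested, and 4 to 8 with a library left out. Where 1 sample stood for the day 14 controls, it was assumed to vary like the other groups. The share of all genes called moved as well. For grafts between days it went from 16.3% to 3.71% with only the groups compared and 4.90% without the mixture-like libraries. It was 8.74% with group weights and 8.53% with no filter, where 39 members were tested. For the difference between days it went from 12.9% to 10.7% with only the groups compared and 4.40% without the mixture-like libraries. It was 6.23% to TPM and 6.34% with no filter. The cause of these shifts was not tested. Sizes of change in members low in controls depended on the setting too. Over the alternatives the day 14 change ran from 4.35 to 6.28 for ADAM12, 1.08 to 2.56 for ADAM15 and 0.88 to 3.17 for ADAMTS7.

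Uncalled changes that turned sign were ADAM10 at day 14 (0.082 and 0.056 without control replicate 2 or 3, 0.022 and 0.157 without graft replicate 1 or 2, in a range of -0.183 to 0.157 with a library left out), ADAMTS1 at day 14 (-0.207 without graft replicate 1, up to 0.907 without replicate 4), ADAM9 at day 30 (-0.048 by the median of ratios, -0.110 to TPM) and ADAMTS15 at day 30 (0.037 without graft replicate 3, down to -0.164 without control replicate 4). Same-numbered graft and control libraries did not deviate together. Correlations of their deviations were 0.127, -0.0792, -0.107 and 0.0412 at day 14 and -0.0436, -0.18, 0.063 and -0.0416 at day 30. These values cannot decide whether such libraries came from the same animal, since a grafted and an unoperated artery need not deviate together. With the replicate block 13 members were called at day 14, 8 at day 30 and 2 for the difference between days. Under it the ADAM15 call at day 30 was lost (adjusted p = 0.0534), as were those of ADAM9 (0.126) and ADAMTS15 (0.108) for the difference, and TIMP4 was called lower at day 14 (0.0163).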
